A study of Caenorhabditis elegans with 4 samples.

Results

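Crowded peaks are the short binding sites of RNA polymerase II (Pol II) that sit between close neighbours on either side. They were chosen by their positions in 1 deposited peak list: a crowded peak is under 2000 bp wide, and the gaps to the peak on its left and to the peak on its right are both under 1000 bp. By this rule 1636 of the 10731 listed peaks were crowded, or 15.2% (95% exact binomial interval 14.6 to 15.9%). They held 973016 bp, which is 12.6% of the length inside peaks. Of the remaining peaks, 187 also lay between close neighbours but were too wide for the rule, 4032 had a close neighbour on 1 side, and 4876 had none.

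The list comes from chromatin immunoprecipitation followed by sequencing in wild-type Caenorhabditis elegans hermaphrodites of strain N2 at larval stage L4, grown at 20 °C. It combines 2 Pol II ChIP samples (mouse monoclonal antibody 8WG16) with 2 input DNA samples, which are chromatin that was not immunoprecipitated. All samples carry the same genotype and stage, so the list holds no contrast between groups of worms. Each worm contains all larval tissues, so peaks next to each other in the list need not be occupied in the same cells. The labels' protocol text refers to embryos and to an antiserum against GFP, and the stage and antibody labels were used here. Because the samples were combined, no value below has a replicate error. Width and gaps chose the members, and strength comes from the same comparison of ChIP with input, so all values are given as descriptions with no test. Intervals on shares cover counting error within the list. Peaks of 1 run share their gaps, so these intervals are too narrow. Read numbers were not analysed here and the depth is unknown.

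Pol II transcribes protein-coding genes, and the 8WG16 antibody binds the repeated tail of its largest subunit. Polymerase can be crosslinked to DNA at promoters, along transcribed genes and beyond their ends, so 1 gene can give a wide peak or several short ones. The C. elegans genome is compact, with short distances between genes. Many worm genes lie in operons, in which neighbouring genes are transcribed from a shared promoter and the long transcript is then cut and trans-spliced into separate messages. No gene annotation of the build used by the list (WormBase WS190) was used here, and crowded peaks were not assigned to genes.

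Crowded peaks joined into runs, which are rows of peaks separated by gaps under 1000 bp. The run with the most peaks lay near the right end of chromosome I, from 14930130 to 14956075 (WS190 coordinates throughout). It held 16 peaks in 25946 bp, and 77.8% of that span was inside peaks. Of these peaks 11 were crowded, from 26 to 1371 bp wide and from 2.15 to 32.7 in strength, which is the −log10 of the deposited q-value. The 4 peaks of at least 2 kb in the same run reached 4573 bp and a strength of 111. Of the 11 crowded peaks, 9 lay to the right of the leftmost wide peak.

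Another run on I, from 10085272 to 10100489, had 14 peaks, of which 11 were crowded. Here the strong peaks stood near the ends, with a strength of 79.7 at the first peak and 58.7 at the peak before the last, which was 2776 bp wide. Between them lay crowded peaks of 4 to 1493 bp, with strengths from 3.80 to 32.6. The run on I from 13285973 to 13298215 had a similar layout, with strengths of 77.9 in its second and 65.4 in its last peak. The 10 crowded peaks between them had strengths from 2.14 to 20.0. On III the longest run, from 13708442 to 13724687, had 13 peaks. Its 10 crowded peaks ranged from 2.06 to 18.1 in strength, whereas its widest peak, of 3540 bp, had 59.3.

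Other long runs were built differently. On IV, from 4393496 to 4415981, 86.9% of 22486 bp lay inside 11 peaks, 4 of them at least 2 kb wide, and the strongest reached 221. Its 5 crowded peaks were 1, 107, 394, 906 and 1144 bp wide, and the widest of these had a strength of 63.7. The run on II from 15202748 to 15224789 was of the same kind, with 10 peaks, among them 4 wide peaks of 96.96 to 198 in strength and 5 crowded peaks of 6.08 to 62.6. By contrast, 3 of the 9 runs with 11 or more peaks held no peak of 2 kb, as did 6 of the 18 runs with 10 or more. On I, from 8445048 to 8453180, 9 of 11 peaks were crowded and no peak exceeded 13.2 in strength. On IV, from 10328754 to 10339148, 9 of 11 were crowded, with the strongest at 31.4. On II, from 12870281 to 12880585, 9 of 11 were crowded, and the strongest peak of the run, at 64.7 and 1239 bp, was itself crowded. The remaining run with 11 or more peaks, on III from 1583249 to 1594407, had 11 peaks of which 8 were crowded, and its strongest reached 17.1. In all, 9 runs had exactly 10 peaks, and the one on II above had the longest span of these. Chromosome V had at most 10 peaks in a run, from 6006507 to 6019512, and X at most 9, from 2590596 to 2607249.

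**Figure D1:**
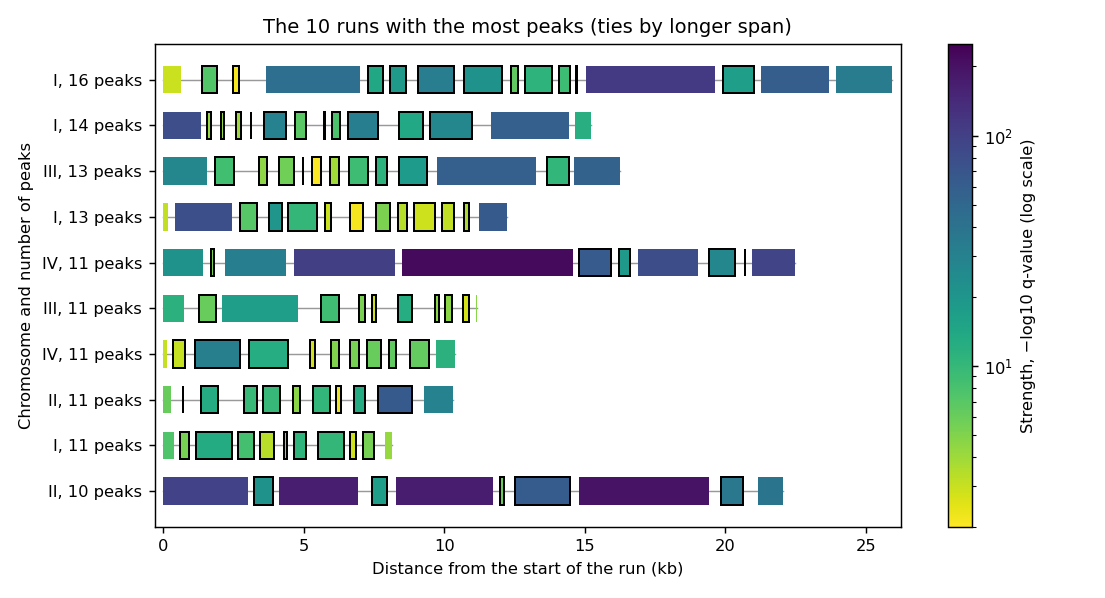
The 9 runs with 11 or more peaks and, of the 9 runs with exactly 10, the one with the longest span, drawn as distance from the start of each run in kb; each box is a listed peak, its colour is the strength (−log10 q-value, log scale), and a black outline marks a crowded peak. The spans run from 8133 to 25946 bp, and the wide dark boxes of runs such as the IV run of 22486 bp contrast with the short boxes of the I run of 8133 bp.

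The gaps beside crowded peaks were mostly far below the limit of the rule. Over both sides, gaps had a median of 404.5 bp (quartiles 278 and 624 bp). The smaller of a peak's 2 gaps had a median of 299 bp and the larger one 573.5 bp. Both gaps were under 500 bp for 646 crowded peaks (39.5%) and under 300 bp for 170 (10.4%). No listed gap was under 200 bp, so peaks closer than that could not appear as neighbours. From the centre of a crowded peak to the centre of the peak on its left, the median distance was 1067 bp (quartiles 780 and 1449 bp).

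Short gaps were in excess over an even scatter, and the excess faded with distance. Even scatter means that the peaks of a chromosome are placed at random along it, at their listed number and widths and at least 200 bp apart; the expected numbers were computed with a closed formula for each chromosome. Gaps from 200 to under 300 bp numbered 1084, which is 7.47 times the expected 145. The ratio was 4.97 from 300 to under 400 bp, 2.72 from 500 to under 600 bp and 1.81 from 900 to under 1000 bp. It was 1.18 from 1500 to under 2000 bp and 0.84 from 2000 to under 3000 bp, so the limit of 1000 bp fell within the range of excess. Gaps from 5000 to under 10000 bp were the scarcest of the classes up to 50 kb, at 0.438 of the expected number.

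**Figure D2:**
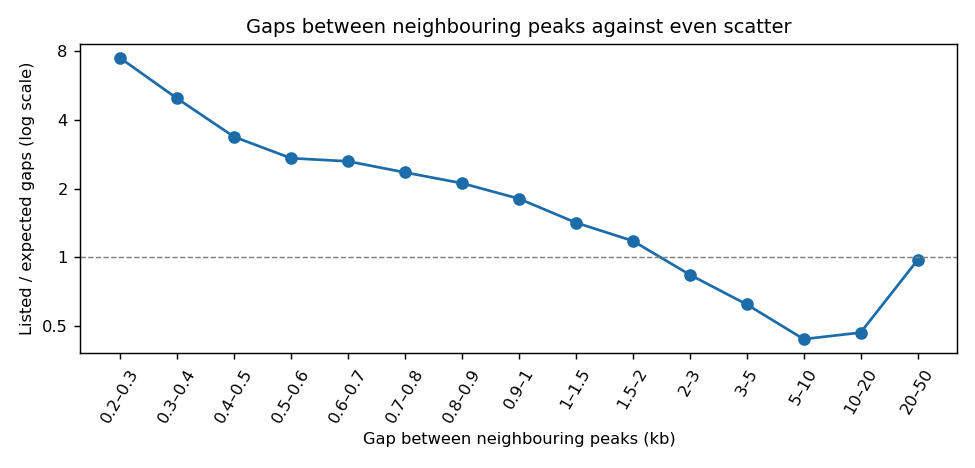
Listed gaps between neighbouring peaks divided by the number expected with even scatter (log scale), by gap size in kb, over all 6 chromosomes; the dashed line marks equal numbers. The ratio falls from 7.47 in the shortest class to 0.438 between 5 and 10 kb and is 0.974 between 20 and 50 kb. Gaps of 50 kb or more, which reach 350140 bp, are not drawn.

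In all, 878 runs held 3 or more peaks and contained every crowded peak. Of these runs, 447 had exactly 3 peaks, 323 had 4 or 5, 90 had 6 to 9 and 18 had 10 or more. In 49 of the 878 runs no inner peak was under 2000 bp, so these runs had no crowded peak. Runs of 6 or more peaks held 553 crowded peaks, or 33.8% of them, and runs of 10 or more held 145 (8.86%). Even scatter gave 109.6 runs of 3 or more peaks and 0.224 of 6 or more, against 108 listed.

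Short gaps also followed each other more often than their own number gives. After a short gap the next gap was short in 47.5% of cases, whereas 35.8% of all gaps were short. If the gaps of each chromosome kept their sizes but stood in mixed order, a formula gives 1400 peaks with short gaps on both sides, against 1823 listed, a ratio of 1.30. By chromosome this ratio ranged from 1.27 on III to 1.40 on X. With the order mixed only within windows of 1 Mb the ratio was 1.29 for all chromosomes, from 1.24 on III to 1.35 on X. The number of runs with 3 or more peaks was close to this reference, at 878 against 880.5. The long runs exceeded it, with 108 against 45.8 for 6 or more peaks and 18 against 1.05 for 10 or more. Runs of 2 or more were fewer, at 2016 against 2439.

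**Figure D3:**
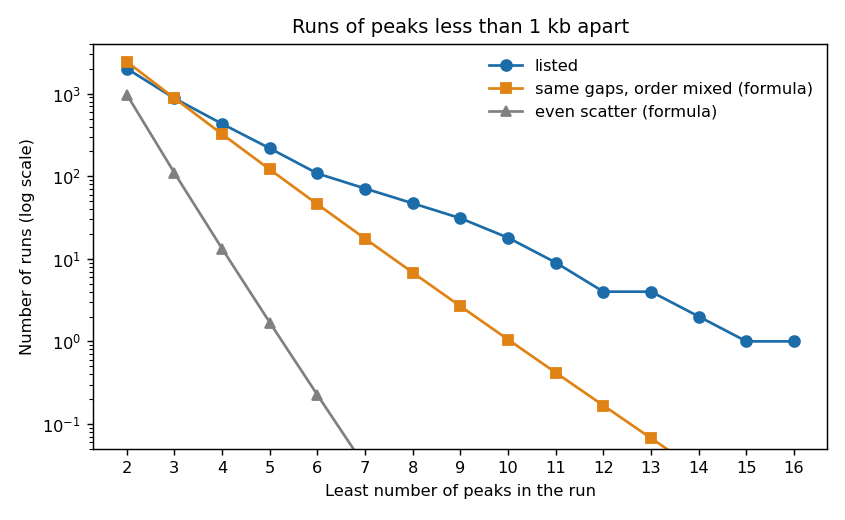
Number of runs (log scale) with at least the number of peaks on the x axis, as listed, with the same gaps in mixed order, and with even scatter; both references come from formulas, and points below the axis are not drawn. The listed curve meets the mixed-order curve at 3 peaks (878 and 880.5) and lies above it for longer runs (18 against 1.05 at 10 peaks).

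A run of 3 peaks spanned 2998 bp at the median, one of 4 or 5 peaks 4777 bp, one of 6 to 9 peaks 8560.5 bp and one of 10 or more 12819 bp. Peaks filled about the same part of short and long runs, with medians of 67.2% of the span for 3 peaks and 66.0% for 10 or more. A total of 330 runs spanned at least 5 kb, and 16 were longer than the widest single peak of the list (15454 bp). A peak of at least 2 kb was present in 27.5% of runs of 3 peaks, 31.9% of those of 4 or 5, 55.6% of those of 6 to 9 and 66.7% of those of 10 or more. Longer runs have more peaks in which a wide one can occur. The gaps just outside runs of 3 or more peaks had a median of 3768 bp, and 30.5% of them were under 2000 bp. Of all gaps of at least 1000 bp, 22.8% were under 2000 bp and the median was 4902 bp.

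Crowded peaks were most frequent on chromosome I. I held 558 of them, 34.1% of all crowded peaks on 24.5% of the listed peaks, or 37.1 per Mb. Of the peaks on I, 21.2% were crowded (19.7 to 22.8%). The share was 17.2% on IV (15.5 to 18.9%), 14.3% on II (12.7 to 16.0%), 13.9% on III (12.4 to 15.6%), 10.4% on V (8.83 to 12.1%) and 7.94% on X (6.42 to 9.69%). The intervals of II and III overlapped, and the lower end of that of IV overlapped the upper ends of both. The counts were 327 on IV, 250 on II, 264 on III, 149 on V and 88 on X. A shared limit of 1000 bp picks more peaks where peaks are dense, so these shares do not compare clustering between chromosomes.

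Against even scatter on the same chromosome, I had the lowest ratio and V and X the highest. Even scatter gave 55.2 crowded peaks on I, and the listed number was 10.1 times that. The ratio was 10.8 on III, 16.2 on II, 21.7 on IV, 32.5 on X and 34.6 on V. X and V had the fewest expected, 2.71 and 4.31. The expected number depends on peak density, so these ratios do not compare clustering between chromosomes either. Over all chromosomes, 117.1 were expected and the ratio was 13.97. With even scatter within windows of 1 Mb, which keeps regional density, the ratio was 11.6 overall and lay between 8.46 on I and 26.8 on X. For single short gaps the ratio ran from 2.84 on I to 5.13 on V.

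I held 49 of the 108 runs of 6 or more peaks, and even scatter gave 0.160 of the 0.224 expected such runs on I, a larger part. IV had 23, III 17, II 12, V 4 and X 3. Of the runs with 10 or more, 7 lay on I, 4 on III, 3 on II, 3 on IV, 1 on V and none on X. Runs of 3 or more peaks spanned a median of 3715 bp on I and 4704 bp on X. They held a peak of at least 2 kb in 23.8% of cases on I and 49.2% on X. Peaks of that width were also rarer on I as a whole, at 121 of its 2631 listed peaks, than on X, at 122 of 1108. The runs were not compared with these shares.

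Each chromosome was cut into 3 equal segments, and peaks were placed by their midpoint. On the autosomes (I to V) the share of peaks that were crowded was 16.1% in the middle segments (640 of 3975) and 16.1% in the outer ones (908 of 5648), a ratio of 1.00. Single chromosomes differed from this pooled value in both directions. On I the middle held 24.2% (21.7 to 26.8%), the right segment 22.0% (19.0 to 25.2%) and the left 16.6% (14.1 to 19.3%). On IV the left segment led with 20.8% (17.8 to 24.1%), against 15.0% in the middle and 15.6% on the right. On III the left segment had 16.3% and the middle 12.0%, with overlapping intervals. The segments of II, V and X differed by less than their intervals, with ranges of 12.9 to 14.9%, 10.1 to 10.6% and 7.08 to 8.61%. Measured against even scatter at the density of each segment, the autosomal middle had 8.83 times the expected number, the left segments 16.2 times and the right segments 16.6 times. The expected numbers were 72.5 in the middle, 28.0 on the left and 27.3 on the right. The expected number depends on peak density, so these ratios do not compare clustering between segments. On V the left and right segments reached 52.7 and 52.1 times, though there only 0.797 and 0.748 were expected and 42 and 39 were listed.

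**Figure D4:**
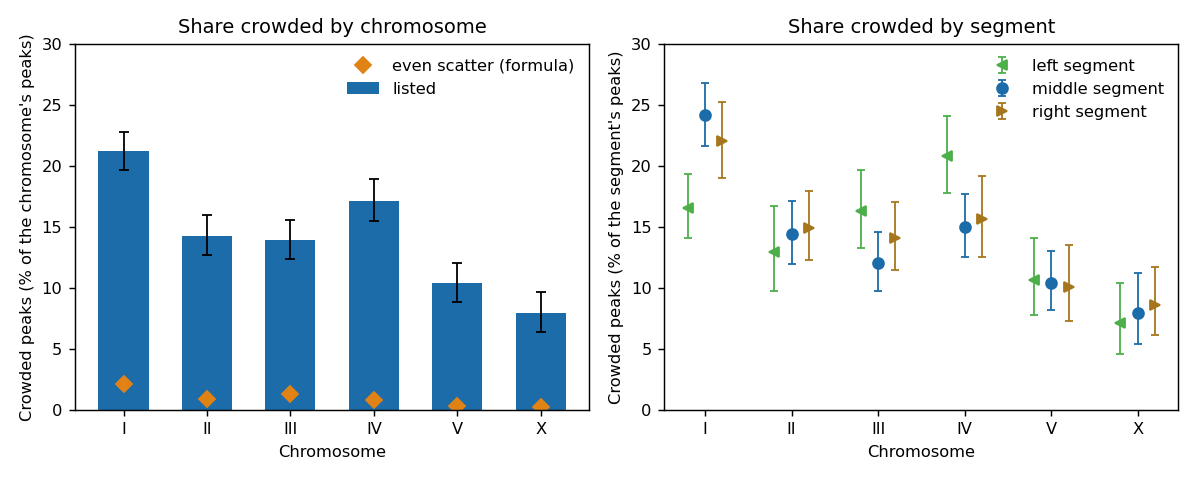
Left, crowded peaks as a percentage of each chromosome's peaks, with the percentage that even scatter gives; right, the same percentage for the left, middle and right segment of each chromosome. Bars and points are shares of 1 combined list and error bars are 95% exact binomial intervals; I stands highest at 21.2% and X lowest at 7.94%.

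Among the 97 full windows of 1 Mb, the median number of crowded peaks was 12. The window on I from 9000001 to 10000000 held 75, which is 29.4% of its 255 peaks. The next ones by number were also on I, with 57 from 6000001 to 7000000 (26.8% of 213 peaks). Windows with 55 each lay from 10000001 to 11000000 (26.7% of 206) and from 5000001 to 6000000 (27.4% of 201). Outside I the highest numbers were 36 on III from 3000001 to 4000000 (23.5% of 153) and 35 on IV from 4000001 to 5000000. On IV these 35 were 27.6% of the 127 peaks there, a higher share than in the I windows with 57 and 55. No crowded peak lay in the window on II from 1000001 to 2000000, with 34 peaks, or in that on V from 3000001 to 4000000, with 25. The longest stretches between successive crowded peaks were 1741 kb on V (2698133 to 4439062), 1502 kb on II (723101 to 2225520) and 1486 kb on V (16364383 to 17850687). On X the longest was 1187 kb (10776347 to 11963522), and on I it was 399 kb.

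Crowded peaks had a median width of 485 bp, with quartiles of 232 and 822.5 bp, against 357 bp for the other peaks under 2000 bp (quartiles 200 and 622 bp). These others include peaks with 1 close neighbour. Peaks under 2000 bp at the ends of runs of 3 or more peaks were nearly as wide as crowded ones, at a median of 473 bp (quartiles 248 and 847 bp). With chromosomes pooled, the crowded share was higher among peaks of 500 bp or more. It was 13.8% of peaks under 100 bp, 13.7% from 100 to under 250 bp, 12.9% from 250 to under 500 bp, 20.4% from 500 to under 1000 bp and 24.9% from 1000 to under 2000 bp. On I it reached 40.1% in the widest class (79 of 197). On III and X the widest class had a lower share than that from 500 to under 1000 bp. The shares were 20.2% against 21.3% on III and 10.1% against 14.6% on X. On the other chromosomes the widest class had the higher share. Of the 970 listed peaks under 100 bp, 134 were crowded, a share of 13.8% against 15.2% in the whole list. These 134 were 8.19% of the crowded peaks. Of the 36 peaks of 1 bp, 3 were crowded. On X the median width of crowded peaks was 708.5 bp and on I 409 bp, with II, III, IV and V between them at 525.5, 439.5, 514 and 597 bp. These widths were not compared with those of the other peaks on each chromosome.

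The strength of crowded peaks ran from 2.00 to 136, with a median of 6.14 and quartiles of 3.55 and 11.5. The other peaks under 2000 bp had a median of 4.90 (quartiles 3.08 and 9.10). Those at the ends of runs of 3 or more peaks were level with crowded peaks, at a median of 6.23 (quartiles 3.62 and 13.2). By deciles of the whole list, 22.7% of the peaks under 2000 bp in the strongest decile were crowded (19.0 to 26.7%), 16.8% in decile 5 (14.6 to 19.2%) and 12.5% in the weakest (10.6 to 14.6%). By chromosome the median of crowded peaks was 6.91 on I, 6.90 on II, 6.11 on III, 5.78 on IV, 5.51 on V and 4.05 on X. The other peaks under 2000 bp also had their lowest median on X. Theirs were 5.54 on I, 5.06 on II, 5.16 on III, 4.92 on IV, 4.11 on V and 3.96 on X. On X the upper quartile was 6.63 for crowded peaks and 6.80 for the others.

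The difference in strength was not uniform once width and chromosome were held equal. Among peaks of 250 to under 500 bp, the median was 5.67 for crowded peaks and 5.18 for peaks with no close neighbour. Within single chromosomes the difference in that class was 0.066 on I, -0.80 on II, 0.033 on III, -0.0092 on IV, 0.11 on V and -0.22 on X. From 500 to under 1000 bp, crowded peaks had the lower median on I, at 11.4 against 12.4. In that class they had the higher one on the other chromosomes, by 0.34 on II, 0.92 on III, 0.33 on IV, 0.94 on V and 0.13 on X. With II to V pooled the difference was 1.20, larger than on any of them. From 1000 to under 2000 bp, crowded peaks had the lower median on I, on II to V pooled and on X, at 26.1 against 28.1 on I, 15.1 against 16.1 on II to V and 6.74 against 7.74 on X. The ranges between quartiles overlapped in each class, and X had only 4 to 46 crowded peaks per class. Over the 6 chromosomes and 5 width classes, the crowded median was the higher one in 18 of 30 cells. From the narrowest class to the widest, it was higher on 4, 5, 3, 5 and 1 of the 6 chromosomes, and the 1 in the widest class was III. Over all chromosomes, peaks with 1 close neighbour had higher medians than crowded peaks from 500 to under 1000 bp (9.43 against 8.70). The same held from 1000 to under 2000 bp (17.9 against 17.4). In the narrower classes their medians, pooled in the same way, were lower than those of crowded peaks. Single chromosomes went both ways. From 250 to under 500 bp, peaks with 1 close neighbour had 5.63 against 4.51 on II but 3.74 against 4.24 on V. From 500 to under 1000 bp they had the lower median on III (9.56 against 9.86) and V (5.85 against 6.47) and the higher one on the other chromosomes.

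**Figure D5:**
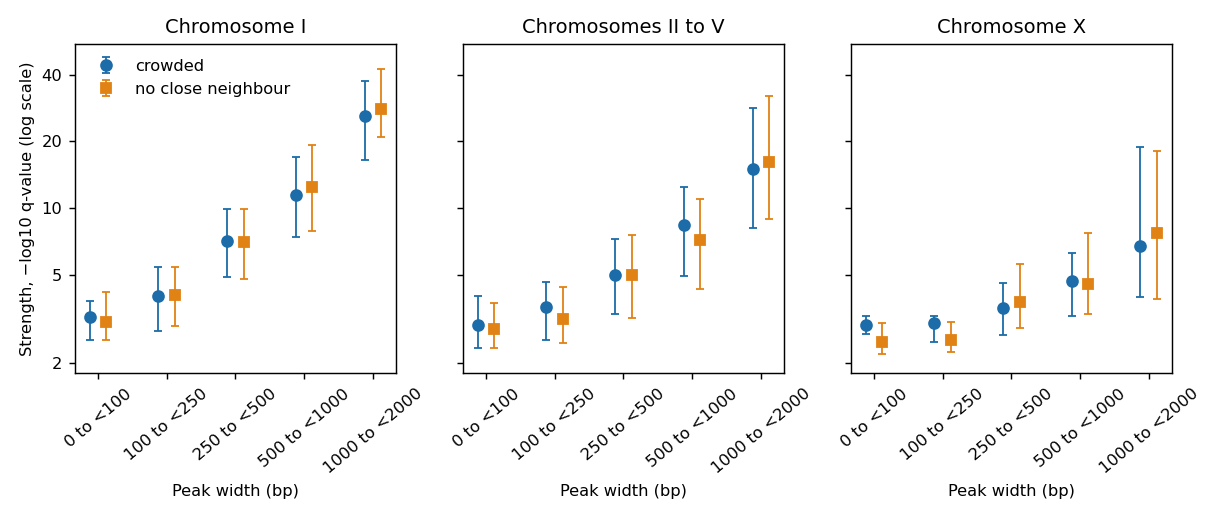
Median strength (−log10 q-value, log scale) of crowded peaks and of peaks with no close neighbour, by width class in bp, on I, on II to V and on X; bars run from the lower to the upper quartile over peaks. Strength rises with width on each panel and the bars of both kinds overlap in every class, as at 26.1 and 28.1 for the widest class on I.

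Compared with their own neighbours, crowded peaks were more often the weak member than the strong one. Of the 1636, 619 (37.8%) were weaker than both neighbours, 614 (37.5%) lay between them, and 403 (24.6%) were stronger than both. The peaks weaker than both had a median width of 300 bp and a median strength of 3.52, and those stronger than both 742 bp and 12.2. In width the counts were alike: 612 were narrower than both neighbours and 420 wider than both. The rule caps the width of a crowded peak but not that of its neighbours, and wide peaks are stronger, so these counts depend in part on the rule. A peak of at least 2 kb stood beside 301 crowded peaks (18.4%), and on both sides of 17. Counted by side, 9.72% of the neighbours of crowded peaks were that wide, against 7.52% of the close neighbours of peaks under 2000 bp with 1 close neighbour and 7.42% of the whole list. The 301 were themselves wider than the rest, at a median of 614 bp against 444 bp, with a strength of 7.26 against 5.87. The other 1335 crowded peaks (81.6%) had short neighbours only.

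Within runs of exactly 3 peaks, the first was the strongest in 175 of 447 runs (39.1%), the last in 163 (36.5%) and the middle one in 109 (24.4%), wide middle peaks included. The median strengths in that order were 7.22, 6.46 and 5.86, while the median widths were 496, 513 and 511 bp. In runs of 4 peaks the shares were more even, from 27.7% at the first place to 22.5% at the third. In runs of 5 they ranged from 15.5% at the fourth to 23.6% at the fifth. The list gives no strand, so first and last are by coordinate and not by direction of transcription. Within a run of 3 or more peaks the strongest and the weakest differed by 18.4 in −log10 q-value at the median (quartiles 6.94 and 42.5).

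The strongest crowded peak lay on III from 5550773 to 5552535. It was 1763 bp wide with q = 3.89e-137, a strength of 136, and its neighbours of 316 and 400 bp had strengths of 6.56 and 6.27. The next was on I from 9099861 to 9101232 (q = 9.27e-130), between a peak of 2293 bp and one of 77 bp. A pair in 1 run on I followed, from 5312742 to 5314343 (q = 7.03e-112) and from 5315859 to 5317456 (q = 2.35e-78). The first of this pair began 241 bp after a peak of 10077 bp and a strength of 109. The fifth, on III from 7141170 to 7141707, was only 538 bp wide at q = 2.59e-74, with neighbours of 31.7 and 30.9 in strength. All 5 lay in middle segments, which held 264 of the 558 crowded peaks on I and 87 of the 264 on III. The 5 weakest had q-values from 9.21e-03 to 9.90e-03 and lay on I (2), II, III and IV, in runs of 3 to 6 peaks. Their widths ran from 150 to 789 bp.

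Peaks just inside and just outside the limits of the rule overlapped in strength. The members nearest to the gap limit were on I, with a larger gap of 999 bp at 12963021 to 12963191 (strength 3.13) and of 998 bp at 5804439 to 5805028 and 5806027 to 5806130 (9.87 and 2.70). Just outside, on IV, were peaks with a gap of 1000 bp at 2988278 to 2989315 and 2990316 to 2991102 (5.84 and 2.84) and of 1001 bp at 12369319 to 12369907 (3.72). In width, 3 members reached 1999 bp, with strengths of 19.8 on I, 28.8 on II and 12.6 on IV. The narrowest peaks left out by width measured 2020 bp on I, 2026 bp on II and 2032 bp on I, with strengths of 5.70, 14.5 and 27.4.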

How the data were processed

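Per the file headers and the source column, the authors deposited peaks from PeakSeq on WormBase build WS190, in a list named as combined over samples. Aligner, versions and read filters are not given in the sources used here. The deposited value of each peak is a q-value, a p-value adjusted for the regions tested; the largest was 0.00998. A q-value depends on depth and width as well as on enrichment. Strength is its −log10.

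Peaks were sorted by chromosome and start; width was end minus start plus 1, and a gap was the bases between neighbours. Even scatter was computed from the distribution of random spacings, between base 1 and the final peak of each chromosome. The formula was tested on 200 drawn placements per chromosome. Mixed order used the product of short-gap frequencies. The members and all lists were chosen with earlier results of these data known. Regions named in the text follow a rule: the 10 runs with the most peaks (ties by longer span), the longest per chromosome, the 5 smallest and 5 largest q-values, and 3 peaks on either side of each limit; windows and stretches were added after their values were seen. Shares have exact Clopper-Pearson 95% intervals. Alternatives changed the limits, the list, the scatter and the segments. The tools were mpmath 1.4.1, scipy 1.17.1, numpy 2.4.6, matplotlib 3.10.9 and pandas 2.3.3 under Python 3.11.15.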

Additional observations from a re-analysis of the deposited data

How the results depend on the processing

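The number of crowded peaks followed the limits set: it was 646 with a gap limit of 500 bp, 2938 with 2000 bp, 1024 among peaks with q under 0.001, 903 with peaks under 300 bp apart joined, and 1078 without chromosome I. The last 3 lists hold fewer peaks by construction. The ratio to even scatter, 13.97 as reported, stayed above 1 in all 10 settings, but its size varied from 5.80 to 36.2. It was 36.2 with the 500 bp limit, 5.80 with 2000 bp, 14.6 with no width limit and 12.8 with a width limit of 1000 bp. With q under 0.001 it was 16.4, and among peaks of at least 100 bp 16.3. It was 13.7 with peaks under 300 bp apart joined, 17.4 without I, 11.6 within 1 Mb windows and 9.79 with no least gap. The middle-to-outer ratio on the autosomes, 1.00, became 0.910 after joining, and the cause was not tested. It became 0.873 without I, whose own ratio of 1.27 was the highest of the autosomes. The ratio was 1.01 on II, 0.796 on III, 0.804 on IV and 1.01 on V. The longest run fell from 16 to 9 peaks after joining, which merges neighbours by construction. Crowded minus single strength in the class from 250 to under 500 bp was 0.49 as reported. This difference ranged from 0.108 (without I) to 0.729 over 8 settings. Within single chromosomes it ran from -0.80 on II to 0.11 on V, and crowded peaks had the higher median on 3 of the 6. The pooled value therefore does not show a difference shared by the chromosomes. No paired analysis was possible because only combined samples were listed, so no replicate could be paired or left out. Depth is unknown here and limits the weakest peaks most.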

Other observations

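The 187 peaks of at least 2 kb that lay between close neighbours were the wide counterpart of the crowded peaks. They were 23.5% of the 796 peaks of that width, whereas 16.5% of the 9935 narrower peaks were crowded. Their median width was 3101 bp and their median strength 52.8. I held 46 of its 121 wide peaks in such a place, IV 41 of 160, III 32 of 121, II 25 of 119, X 22 of 122 and V 21 of 153. The widest lay on II from 3955633 to 3971086, in a run of 3 peaks with gaps of 352 and 291 bp. The next was the peak of 10077 bp on I from 5302424 to 5312500, in a run of 8 peaks that also held 2 of the 5 strongest crowded peaks. The third, of 9249 bp, lay on III from 9766161 to 9775409. Any close neighbour was present for 68.7% of wide peaks and for 53.4% of narrower ones.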
